A study of Gallus gallus with 60 samples.

Results

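The 8 genes described here, taken as macrophage and leukocyte genes, were followed in chicken utricles. They were PTPRC, LY86, GPNMB, LCP1, CTSS, CD74, CD3E and LAPTM5. They were taken by gene name from a table of 17684 rows, and all 8 were among the 13862 rows tested, those with at least 1 RPKM (a read level per length of transcript and per depth of the library) in at least 2 libraries. PTPRC entered the test through only 2 libraries. The rule names the genes and uses no measured value, although it was written with earlier results of these data known.

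The utricle is a vestibular organ of the inner ear, and streptomycin is an aminoglycoside antibiotic that kills its sensory hair cells, which birds replace. Per the labels, dissected utricles received streptomycin for 24 h and were then left to recover, and control utricles were collected at the same labelled times of 0, 24, 48, 54, 60, 66, 72, 96, 120, 144 and 168 h. The moment from which the hours count, the number and age of the animals and the handling of the controls were not given in the sources used here. The spread between samples, against which every p-value is measured, may therefore be technical in part. Each arm had 28 biological samples, of which 4 were at 24 h, 3 at each of 72, 96, 120 and 168 h, and 2 at each remaining time.

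Leukocytes carry PTPRC (CD45), a receptor tyrosine phosphatase, on their surface, and the actin-bundling protein LCP1 (L-plastin) in their cytoplasm. Macrophages take up dead cells and matrix, digest them in lysosomes with proteases such as CTSS, and present peptides on class II molecules assembled with the invariant chain CD74. In the avian inner ear, macrophages are known to reside in the tissue and to gather near sensory epithelia after hair cells die. Several of the genes are also known from other cells, among them GPNMB from pigment cells and plastins from the actin core of hair cell stereocilia.

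Depth ran from 1486991 to 40331879 alignments per library with a median of 21154441, and 7 of 60 libraries had fewer than 5000000. They came from 24 h (control replicates 1 and 2, treated replicate 1), 96 h (treated replicate 1), 120 h (control replicate 1) and 168 h (replicate 1 of both arms). Of 21 tested hair cell genes 18 were lower in treated utricles over all times, against 12.5% of all rows, and 1 was higher, against 18.5%. The summed RPKM of the list was 606.7 to 2648 in controls and 341.4 to 914.5 in treated samples. Differences below are on the scale of log2(RPKM + 0.5), treated minus control, ± SE from limma, and adjusted p-values are Benjamini-Hochberg values over all rows tested.

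Over the 11 times, LCP1 and GPNMB were lower in treated utricles by more than any other of the 8 genes, CD74 was lower by little, and LY86, LAPTM5 and CD3E were higher. CTSS and PTPRC did not pass the test. In the mean over all times 3 of 8 genes were called higher, against 18.5% of all rows, and 3 were called lower, against 12.5% of all rows. The median difference of the 8 genes was 0.14 and that of all rows 0.06. In whole tissue, fewer cells of a type and less RNA per cell cannot be told apart.

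**Figure D1:**
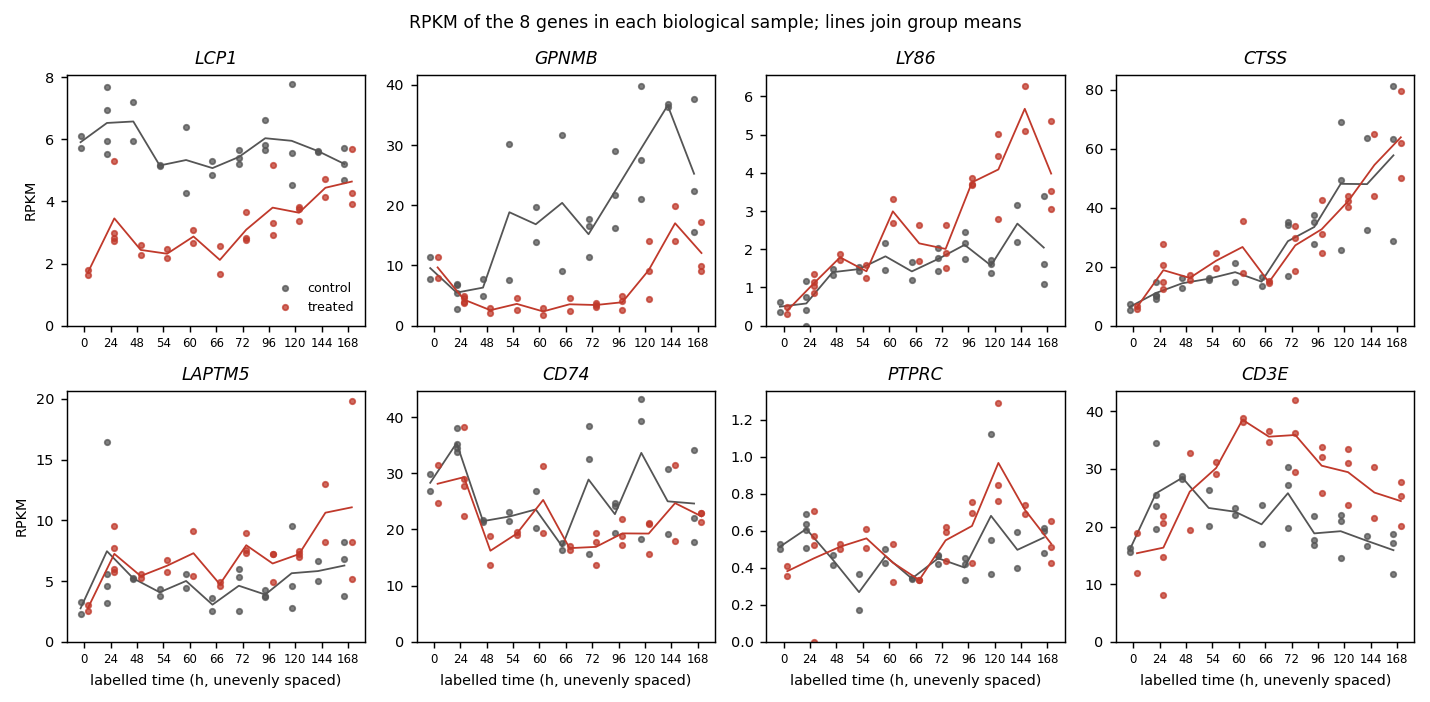
RPKM of each of the 8 genes (vertical axes, each with its own range) in every control (grey) and treated (red) sample at the 11 labelled times (horizontal axis, unevenly spaced), with lines through group means. LCP1 points of treated samples lie below all controls of their time except at 168 h, treated GPNMB stays between 1.81 and 4.99 RPKM from 48 to 96 h, and CTSS is higher late than early in both arms.

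Levels of the genes are set side by side on the RPKM scale, which is per length. The unit of the values was not named and was read as RPKM. How reads were assigned to genes was not given either, which limits comparison between genes. The median over 28 controls was 24.4 RPKM for CD74, 20.6 for CD3E, 19.1 for CTSS, 16.4 for GPNMB, 5.65 for LCP1, 4.50 for LAPTM5, 1.51 for LY86 and 0.471 for PTPRC. Neighbours in this order overlapped in their ranges over the control samples, so the order is one of medians only. LCP1 had the narrowest relative range, 4.26 to 7.78 RPKM, and CTSS the widest among the 4 genes with the highest medians, 5.29 to 81.3 RPKM.

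PTPRC, the phosphatase that marks nearly all leukocytes, was at the edge of detection. In control samples it ranged from 0.173 to 1.12 RPKM and in treated samples from 0 to 1.29 RPKM, with medians of 0.471 and 0.529. Only control and treated replicate 1 of 120 h reached 1 RPKM, and that control was a library of low depth. The sample at 0 was treated replicate 1 of 24 h, also a library of low depth. The groups overlapped at 6 of 11 times, with treated samples above all controls at 48, 54 and 144 h and below them at 0 and 66 h. Groups of 2 samples per arm often part in this way without a difference. The share of all rows that did so was not computed. Counts of times without overlap, here and for the other genes, are therefore descriptions only. The mean difference over all times was 0.10 ± 0.08 (adjusted p = 0.391), and at 96 to 168 h it was 0.23 ± 0.12 (adjusted p = 0.227). Without the 7 libraries of low depth both passed, at 0.15 (adjusted p = 0.0353) and 0.30 (adjusted p = 0.0244). Those libraries include the highest control, at 1.12 RPKM, and the treated sample at 0.

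LCP1, which crosslinks actin filaments in leukocytes, was the gene with the earliest difference. At 0 h it stood at 6.10 and 5.71 RPKM in the controls and 1.79 and 1.65 RPKM in the treated samples. The 4 controls of 24 h were at 6.94, 7.69, 5.96 and 5.52 RPKM, and the treated samples at 5.29, 2.84, 2.97 and 2.72 RPKM. Every treated sample was below every control at both times, and treated replicate 1 of 24 h, a library of low depth, was nearer to the controls than the other 3.

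At 48 h the controls had 7.22 and 5.93 RPKM of LCP1 and the treated samples 2.28 and 2.60 RPKM. Values at 60 h were 6.41 and 4.26 RPKM in controls and 3.08 and 2.66 RPKM in treated samples. The 3 controls of 72 h had 5.41, 5.21 and 5.67 RPKM and the treated samples 3.66, 2.84 and 2.77 RPKM. Treated LCP1 was thus below all controls throughout 48 to 72 h, which includes 54 and 66 h, where treated group means were 2.32 and 2.12 RPKM against 5.16 and 5.07 RPKM.

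From 96 h the arms came closer. The 96 h controls held 6.63, 5.66 and 5.81 RPKM and the treated samples 5.18, 3.30 and 2.93 RPKM. At 144 h controls were at 5.60 and 5.64 RPKM and treated samples at 4.72 and 4.16 RPKM. The 168 h controls were at 5.74, 4.68 and 5.20 RPKM and the treated samples at 5.70, 3.93 and 4.29 RPKM, the only time at which the arms overlapped. The highest treated values of 96 and 168 h, 5.18 and 5.70 RPKM, came from replicate 1, a library of low depth at both times. The other treated samples of 168 h were below all controls of that time. Without the libraries of low depth the 96 h difference on the log2 scale was -0.854, against -0.636 with them.

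The mean difference of LCP1 over all times was -0.82 ± 0.07 (1.76-fold lower, adjusted p = 1.71e-12), negative at 11 of 11 times. It was -1.20 ± 0.16 over 0 and 24 h (adjusted p = 2.72e-07), -0.98 ± 0.11 over 48 to 72 h (adjusted p = 3.21e-09) and -0.43 ± 0.11 over 96 to 168 h (adjusted p = 0.00489). The late minus early difference was 0.77 ± 0.19 (adjusted p = 0.00957), so the gap between the arms was smaller late, and this call was lost under quantile normalization (0.59, adjusted p = 0.0626). Group means of controls stayed within 5.07 and 6.57 RPKM with no difference between times that passed (adjusted p = 0.933), while treated means went from 1.72 RPKM at 0 h to 4.64 RPKM at 168 h, a ratio of 2.70.

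GPNMB, a transmembrane glycoprotein of phagocytes and pigment cells, did not separate the arms at the first times. At 0 h it was 11.4 and 7.70 RPKM in controls and 11.4 and 7.96 RPKM in treated samples. The 24 h controls were at 6.71, 5.49, 2.79 and 6.97 RPKM and the treated samples at 3.80, 3.95, 4.92 and 4.63 RPKM. The arms overlapped at both times, and both were lower at 24 h than at 0 h in their group means.

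At 54 h the controls reached 7.59 and 30.1 RPKM and the treated samples 2.66 and 4.57 RPKM. The 60 h controls had 13.95 and 19.73 RPKM and the treated samples 1.81 and 2.90 RPKM. At 66 h control values were 9.15 and 31.6 RPKM and treated values 2.46 and 4.64 RPKM. All treated samples lay below all controls at these 3 times, with controls that differed more than 3-fold from each other at 54 and 66 h.

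GPNMB at 96 h was 16.2, 21.7 and 29.1 RPKM in controls and 4.07, 2.61 and 4.99 RPKM in treated samples. The 120 h controls were at 27.5, 21.1 and 39.8 RPKM and the treated samples at 9.04, 4.50 and 14.1 RPKM. At 168 h the controls were at 22.4, 15.6 and 37.7 RPKM and the treated samples at 17.2, 9.08 and 9.94 RPKM. The arms did not overlap from 48 to 144 h, which was 8 times, and overlapped at 168 h, where the highest treated sample exceeded the lowest control.

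The mean difference of GPNMB over all times was -1.48 ± 0.14 (2.79-fold lower, adjusted p = 3.47e-11), with 10 of 11 times negative. It was -0.11 ± 0.31 over 0 and 24 h (adjusted p = 0.875), -1.97 ± 0.22 over 48 to 72 h (adjusted p = 3.36e-09) and -1.55 ± 0.22 over 96 to 168 h (adjusted p = 1.93e-06). The difference at 60 h, -2.61 ± 0.51 (6.09-fold lower, adjusted p = 0.000882), was the most negative of the 11. Late minus early it was -1.44 ± 0.39 (adjusted p = 0.0159), a call lost without control replicate 2 of 0 h (-1.30, adjusted p = 0.0697) or treated replicate 1 of 0 h (-1.31, adjusted p = 0.104).

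GPNMB changed with time in controls as well. The control group mean went from 9.55 RPKM at 0 h to 5.49 RPKM at 24 h and 36.6 RPKM at 144 h, and control samples differed between times (adjusted p = 0.000217). The treated mean was lowest at 60 h, at 2.36 RPKM, and highest at 144 h, at 17.0 RPKM, where the difference from controls did not pass at that single time (-1.10 ± 0.51, adjusted p = 1).

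LY86 (MD-1), a secreted protein that pairs with the Toll-like receptor relative RP105 on immune cells, had higher group means late than early in both arms. At 0 h it was 0.631 and 0.361 RPKM in controls and 0.314 and 0.478 RPKM in treated samples. The 120 h controls had 1.71, 1.39 and 1.63 RPKM and the treated samples 2.79, 5.02 and 4.45 RPKM. At 144 h the controls had 2.19 and 3.15 RPKM and the treated samples 6.26 and 5.09 RPKM. Treated samples were above all controls at 48, 60, 66, 96, 120 and 144 h and overlapped them at 0, 24, 54, 72 and 168 h.

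The LY86 difference was 0.51 ± 0.10 over all times (1.43-fold higher, adjusted p = 8.89e-05) and 0.92 ± 0.16 over 96 to 168 h (1.89-fold higher, adjusted p = 4.1e-05). Over 0 and 24 h it was 0.27 ± 0.22 (adjusted p = 0.491) and over 48 to 72 h 0.29 ± 0.16 (adjusted p = 0.234). Late minus early it was 0.65 ± 0.27 and missed the threshold (adjusted p = 0.139), so the periods were not shown to differ; without the libraries of low depth it passed (0.77, adjusted p = 0.0296). Control samples differed between times (adjusted p = 0.00177), with means of 0.496 RPKM at 0 h and 2.67 RPKM at 144 h.

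CTSS, cathepsin S, the lysosomal protease that trims the invariant chain, differed strongly between times and did not pass between the arms. At 0 h it was 7.38 and 5.29 RPKM in controls and 5.76 and 6.75 RPKM in treated samples. By 168 h it was 81.3, 63.1 and 28.7 RPKM in controls and 79.7, 50.0 and 61.8 RPKM in treated samples. Both arms were about 9 to 10 times higher at 168 h than at 0 h, with ratios of group means of 9.11 and 10.2. Control samples differed between times (adjusted p = 1.2e-06), whereas the mean treatment difference was 0.19 ± 0.12 (adjusted p = 0.228) and the arms overlapped at 10 of 11 times.

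The difference in CTSS was highest at 24 h. Controls were at 10.3, 10.2, 15.0 and 8.88 RPKM and treated samples at 27.6, 14.7, 20.5 and 12.4 RPKM, with the groups overlapping. The difference of 0.70 ± 0.30 did not pass (adjusted p = 0.119), and with same-numbered samples as a block it did (adjusted p = 0.0283). The highest treated value, 27.6 RPKM, came from replicate 1, a library of low depth. Without the libraries of low depth the difference was 0.414 and did not pass.

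LAPTM5, a lysosomal membrane protein of blood cells that lowers antigen receptor levels, was higher in treated utricles. Over 96 to 168 h controls ran from 2.82 to 9.56 RPKM with a median of 4.57, and treated samples from 4.94 to 19.8 RPKM with a median of 7.21. The 72 h controls were at 2.53, 5.34 and 5.99 RPKM and the treated samples at 7.32, 8.99 and 7.56 RPKM. The arms did not overlap at 54, 66, 72, 96 and 144 h, and the highest control of the series, 16.5 RPKM, was replicate 2 of 24 h, a library of low depth. The highest treated sample, 19.8 RPKM, was replicate 1 of 168 h, also a library of low depth. The other treated samples of 168 h were at 5.21 and 8.22 RPKM.

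The LAPTM5 difference was positive at 11 of 11 times and averaged 0.47 ± 0.13 (1.39-fold higher, adjusted p = 0.00524). Over 48 to 72 h it was 0.49 ± 0.21 (adjusted p = 0.102; 0.0212 with the pairs as a block). Over 96 to 168 h it was 0.64 ± 0.21 (adjusted p = 0.03), a call lost under quantile normalization (adjusted p = 0.0592), in a fit on those times alone (adjusted p = 0.0702) and when any of 5 single samples was left out, among them treated replicate 1 of 168 h.

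CD74, the class II invariant chain, stood a little lower in treated utricles. Controls ranged from 15.6 to 43.2 RPKM with a median of 24.4, and treated samples from 13.6 to 38.2 RPKM with a median of 20.3. At 120 h the controls were at 43.2, 39.3 and 18.4 RPKM and the treated samples at 15.6, 21.0 and 21.2 RPKM. The arms overlapped at 9 of 11 times, the exceptions being 48 and 54 h. The mean difference of -0.24 ± 0.09 (1.18-fold lower) passed narrowly (adjusted p = 0.0455) and missed the threshold when any of 34 single samples was left out, with no filter on low values (adjusted p = 0.0543) and with a robust fit (adjusted p = 0.0502).

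CD3E encodes the epsilon chain of the T cell receptor complex. At 24 h it was 19.6, 34.4, 25.4 and 23.6 RPKM in controls and 8.10, 21.9, 14.7 and 20.7 RPKM in treated samples. By 60 h the controls had 21.97 and 23.17 RPKM and the treated samples 38.9 and 38.2 RPKM. At 96 h the controls were at 21.9, 16.8 and 17.7 RPKM and the treated samples at 33.8, 25.8 and 32.1 RPKM. The arms overlapped at 24 h and were apart, with treated samples above, at 7 times: 54, 60, 66, 96, 120, 144 and 168 h.

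The CD3E difference was -0.71 ± 0.22 at 24 h (adjusted p = 0.0308), but without the libraries of low depth it did not pass (-0.37, adjusted p = 0.449). It was 0.45 ± 0.14 over 48 to 72 h (adjusted p = 0.015) and 0.61 ± 0.14 over 96 to 168 h (adjusted p = 0.00144), with a mean over all times of 0.36 ± 0.09 (1.28-fold higher, adjusted p = 0.00146). The 48 to 72 h call was lost without treated replicate 2 of 48 h (adjusted p = 0.0561) or control replicate 2 of 66 h (adjusted p = 0.0504). Late minus early it was 1.01 ± 0.24 (adjusted p = 0.00675), lost without treated replicate 1 of 0 h (0.85, adjusted p = 0.08).

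The CD3E level set it apart from the other T cell genes. Of 22 T and natural killer cell genes in the table only 6 passed the filter. CD3D, which encodes the delta chain of the same receptor complex, had a median of 0.405 RPKM in controls and 0.443 RPKM in treated samples, and IL7R, GZMA, CTLA4, TRAT1 and EOMES had medians of 0 in both arms. ZAP70, the kinase recruited by the receptor, was at 0 in 31 of 56 samples, CD4 had a control median of 0.170 RPKM and CD8A 0.409 RPKM. The summed level of the list was 9.74 to 36.2 RPKM in controls and 13.2 to 37.0 RPKM in treated samples, with GATA3, which is also active in the inner ear, as the gene with the highest median (8.72 RPKM in controls). Some genes of the list were detected at low levels, with control medians of 1.46 RPKM for CD247, the zeta chain of the same complex, 1.23 RPKM for THEMIS and 2.23 RPKM for the cytokine receptor chain IL2RG. All were far below the control median of 20.6 RPKM of the CD3E row, whose values are given as those of the row only. How reads were assigned where genes overlap or resemble each other was not given in the sources used here.

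**Figure D2:**
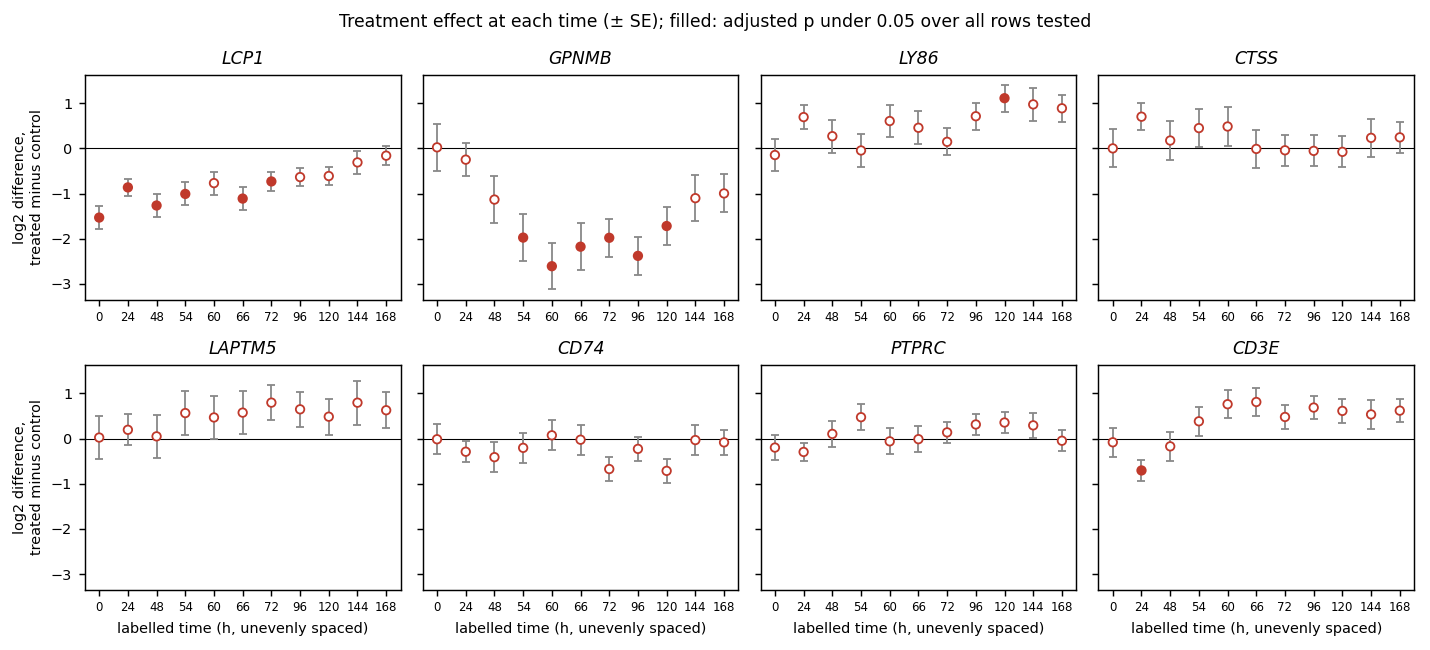
Treated minus control difference of log2(RPKM + 0.5) (vertical axis, ± SE) at each of the 11 labelled times (horizontal axis, unevenly spaced) for each of the 8 genes, filled where the adjusted p over all rows was under 0.05. LCP1 goes from -1.53 at 0 h to -0.16 at 168 h, GPNMB dips to -2.61 at 60 h, and CD3E passes from -0.71 at 24 h to 0.81 at 66 h.

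By period, 1 of 8 genes was lower over 0 and 24 h (LCP1), against 5.98% of all rows, and 0 were higher, against 6.77% of all rows, by limma (0 at an unadjusted p under 0.05). Over 48 to 72 h 2 were lower, against 10.2% of all rows, and 1 was higher, against 9.13% of all rows (2 with the pairs as a block). Over 96 to 168 h 2 were lower, against 7.11% of all rows, and 3 were higher, against 9.65% of all rows. The 0 and 24 h split of all rows moved with the scaling, from 939 higher and 829 lower as deposited to 635 higher and 957 lower after trimmed-mean scaling.

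The change of the difference from 0 and 24 h to 96 to 168 h passed upward for LCP1 and CD3E, against 3.9% of all rows, and downward for GPNMB, against 4.44% of all rows. In the test of any difference between the 11 times, passed by 1.48% of all rows, none of the 8 genes passed by limma, and GPNMB, CD3E and LCP1 had unadjusted p-values under 0.05. With the pairs as a block GPNMB (adjusted p = 0.0913 without and 0.00746 with the block) and CD3E (0.106 and 0.0194) passed. The share of all rows that passed this test with the block is not given here. Among controls alone, 6.46% of all rows differed between times, and CTSS, GPNMB and LY86 were the 3 of 8 that did.

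At single times, the share of all rows called in either direction was 2.56% at 0 h, 12.9% at 24 h, 3.38% at 48 h, 2.59% at 54 h, 4.2% at 60 h, 2.85% at 66 h, 4.3% at 72 h, 5.14% at 96 h, 2.66% at 120 h, 0.519% at 144 h and 1.41% at 168 h. Without the libraries of low depth LCP1 was called lower also at 60 h (adjusted p = 0.0051) and 96 h (-0.854, adjusted p = 0.000699). With all libraries LCP1 was called lower at 6 times, 0, 24, 48, 54, 66 and 72 h, and at 8 with the pairs as a block. Those of 0, 24 and 48 h held without any single sample, and those of 54, 66 and 72 h were each lost without single samples of their time (adjusted p up to 0.213, 0.254 and 0.143). GPNMB was called lower at 6 times, 54 to 72 h, 96 h and 120 h, and at 168 h also with the block (adjusted p = 0.0453). Those of 72 and 96 h held without any single sample. The call at 54 h was lost without control replicate 2 (-1.01, adjusted p = 1) or either treated sample, and that at 66 h without control replicate 2 (-1.31, adjusted p = 0.838) or treated replicate 1 (-1.78, adjusted p = 0.268). At 60 h it was lost without treated replicate 2 (adjusted p = 0.0526), and at 120 h without control replicate 3 (adjusted p = 0.0891) or treated replicate 2 (adjusted p = 0.206). LY86 was called higher at 120 h (1.11 ± 0.30, adjusted p = 0.0299), a call lost with a pseudocount of 0.1 (adjusted p = 0.175) and without any of 5 of the 6 samples of that time (adjusted p up to 0.199). CD3E at 24 h, which completes the single-time calls of the 8 genes, was lost without any of 4 samples of that time (adjusted p up to 0.221). With the block, LY86 and CTSS were also called higher at 24 h and CD3E at 96 h. The LY86 difference at 24 h, 0.69 ± 0.26, ran from 0.364 to 0.943 without single samples. Control replicate 1 of that time was at 0 RPKM of LY86, in a library of low depth. At 144 and 168 h 0 of 8 passed by limma, while 2 and 3 had an unadjusted p under 0.05.

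Set against the mean of the other 6 genes in the same sample, GPNMB and LCP1 departed at different times. For GPNMB the treated minus control difference lay 0.10 below that of the other 6 over 0 and 24 h, at -0.11 against -0.01. Over 48 to 72 h it was -1.97 against a mean of 0.22, and over 96 to 168 h -1.55 against 0.37. For LCP1 the corresponding values were -1.20 against -0.01, -0.98 against 0.22 and -0.43 against 0.37.

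Over all times the other 6 genes ranged from -0.24 (CD74) to 0.51 (LY86) with a mean of 0.23. The distance from that mean was -1.71 for GPNMB and -1.05 for LCP1. These distances are a description, with no test, since the pair was chosen with results known. The LCP1 level relative to the other 6 also drifted within the controls, from a group mean of 0.46 at 0 h to -0.55 at 168 h, where the control RPKM ratio of 168 h to 0 h was 0.881 for LCP1, 9.11 for CTSS, 4.12 for LY86 and 2.28 for LAPTM5, and 0.870 to 1.10 for CD74, CD3E and PTPRC. Treated group means lay between -1.45 and -0.81, and single treated samples between -1.61 and -0.17.

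**Figure D3:**
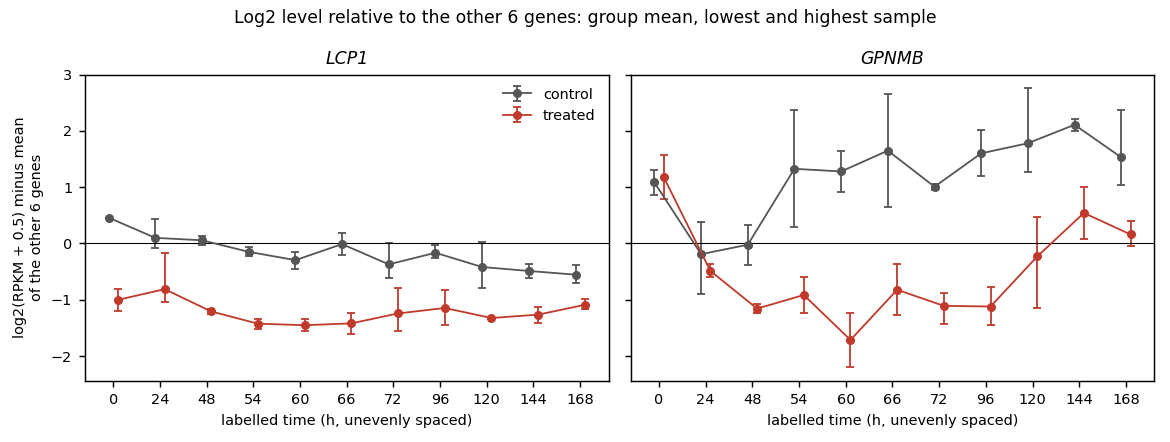
Log2(RPKM + 0.5) of LCP1 (left) and GPNMB (right) minus the mean of the other 6 genes in the same sample (vertical axis) at the 11 labelled times (horizontal axis, unevenly spaced), as group mean with the lowest and highest sample, control grey and treated red. The treated LCP1 group means lie between -1.45 and -0.81, and the treated GPNMB line departs after 24 h and lies lowest at 60 h, at -1.72 against 1.28.

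Most tested genes of the hair cell list were lower in the same samples as LCP1. In the hair cell list 18 of 21 were lower, against 12.5% of all rows, and 1 was higher, against 18.5%, with a median of -1.49. Its summed levels over 0 and 24 h were 1684 to 2375 RPKM in controls and 361.5 to 557 RPKM in treated samples. Over 96 to 168 h they were 606.7 to 2065 and 439.3 to 914.5 RPKM. The highest control medians of the list were those of OCM2, CALB2 and OTOF, at 553.8, 455.5 and 270.2 RPKM, so these genes weigh most in the sums. OTOF, the otoferlin of hair cell synapses, was lower by 2.39 on the log2 scale. Some other actin-bundling genes were lower too, PLS1, the plastin of stereocilia in mice, at -1.13 ± 0.12 (adjusted p = 4.49e-10) and PLS3 at -0.43 ± 0.09 (adjusted p = 0.000248). Of 7 genes in the actin-bundling list 4 were lower, against 12.5% of all rows, and 1 was higher, against 18.5% (4 and 2 in the blocked fit, which called more of all rows). FSCN2 and ESPN of this list are also in the hair cell list, so the 2 counts are not separate. FSCN1, ACTN1 and ACTN4 had higher medians in treated samples (59.4, 70.6 and 63.6 RPKM) than in controls (44.7, 56.5 and 55.4 RPKM). The part of hair cells in the LCP1 difference was not tested.

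Over the 22 group means, the 3 named rows with the highest correlation with LCP1 were ANKRD24 (r = 0.947), LHX3 (0.941), a transcription factor in the hair cell list, and LHFPL5 (0.938). Within the 28 controls these correlations were 0.02, 0.018 and 0.085, and within the 28 treated samples 0.67, 0.761 and 0.523. Among the other genes followed here, the correlation with LCP1 within treated samples was 0.824 for CTSS, 0.767 for LAPTM5 and 0.671 for LY86. It was 0.35 for GPNMB, 0.153 for CD74, 0.144 for PTPRC and -0.051 for CD3E. Over the group means, correlations of CTSS, LAPTM5 and LY86 with LCP1 were 0.217, -0.081 and -0.013. Within controls they were -0.124, 0.461 and -0.149. Correlations within an arm, here and below, ran over its 11 times with time not removed. They cannot separate a shared change with time from a shared change between samples of 1 time. In treated samples the ratio of group means of 168 h to 0 h was 2.70 for LCP1, 10.2 for CTSS, 3.98 for LAPTM5 and 10.05 for LY86. All rows compared share the same libraries and depth.

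GPNMB is also a gene of pigment cells. Of 11 tested melanocyte genes 4 were higher, against 18.5% of all rows, and 1 was lower, against 12.5%, with summed levels of 68.7 to 267.3 RPKM in controls and 163.1 to 434.5 RPKM in treated samples. Most of that sum came from SOX10, which other cells of the inner ear also express, with medians of 121.2 RPKM in controls and 180.6 RPKM in treated samples. TYRP1, a melanosomal enzyme, had a control median of 24.5 RPKM and a difference of 0.21 ± 0.13 (adjusted p = 0.242). Other genes of the list differed widely in level. PMEL and TYR had control medians of 0.219 and 0.0193 RPKM, and DCT, SLC45A2 and MLANA 0.331, 0.164 and 0.152 RPKM. OCA2, MITF, SLC24A5 and GPR143 had control medians of 10.4, 8.03, 3.94 and 2.96 RPKM. EDNRB2, a receptor of melanoblasts in birds, was the list's largest rise (2.32 ± 0.14, adjusted p = 4.04e-17), with medians of 9.58 and 54.6 RPKM. The part of pigment cells in the GPNMB difference was not tested. The rows nearest to GPNMB over the group means were BTBD11 (r = 0.938), ODZ2 (0.935) and BAG2 (0.928), with 0.668, 0.782 and 0.85 within controls.

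The counts of every list below can be read against the 18.5% of all rows called higher and the 12.5% called lower over all times, and none was tested as a set. Blocked counts stand against a larger share, since the blocked fit called 5793 of 13862 rows over all times, against 4307 without the block. Of 48 names in the macrophage list, 30 were in the table and 27 tested, of which 11 were higher, 1 lower and 15 did not pass (13 higher and 2 lower in the blocked fit), with a median of 0.21. CSF1R, the receptor of macrophage growth factors, was higher by 0.45 ± 0.10 (adjusted p = 0.000344) at medians of 1.77 RPKM in controls and 2.39 RPKM in treated samples. SPI1, the transcription factor PU.1, was higher by 0.43 ± 0.09 (adjusted p = 0.000388).

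The complement subunits C1QB and C1QC were higher by 0.77 ± 0.20 and 0.72 ± 0.16 (adjusted p = 0.00245 and 0.00043), and the scavenger receptor CD36 by 0.57 ± 0.08 (adjusted p = 3.81e-07). LY96, the co-receptor of TLR4, was the gene that was lower (-0.49 ± 0.18, adjusted p = 0.0383). IRF8 and LGALS3 had the highest control medians, 40.7 and 25.0 RPKM, and did not pass over all times by limma. LGALS3 was called lower over all times in the blocked fit. The summed level of the list was 93.7 to 174.6 RPKM in controls and 90.3 to 220.1 RPKM in treated samples. At 0 and 24 h 0 of 27 genes were higher by limma (0 at an unadjusted p under 0.05), against 6.77% of all rows. In that period 1 was lower, against 5.98% of all rows, and it was LGALS3 (-0.662 ± 0.215, adjusted p = 0.0352).

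Among 10 tested genes shared by most leukocytes, 5 were higher and 1 lower. RAC2, a GTPase of blood cells, was higher by 0.59 ± 0.15 (adjusted p = 0.00158), with 1.39 ± 0.23 over 96 to 168 h (adjusted p = 2.55e-05). CD44, an adhesion receptor also made by many other cells, changed direction with time. It was higher over 0 and 24 h (by 1 ± 0.30 on the log2 scale, adjusted p = 0.0234) and lower over 96 to 168 h (-1.04 ± 0.21, adjusted p = 0.000557), with a late minus early value of -2.04 ± 0.37 (adjusted p = 0.000667) and a mean of -0.40 ± 0.14 (adjusted p = 0.0207). The 14 lysosomal genes divided into 4 higher and 4 lower, with LIPA, lysosomal acid lipase, at 0.37 ± 0.10 and CTSL2, a cathepsin, at -0.33 ± 0.10 (adjusted p = 0.00432 and 0.00901). Of 11 antigen presentation genes 3 were higher and 0 lower by limma (1 at an unadjusted p under 0.05), with 5 higher and 1 lower in the blocked fit. The class I light chain B2M was higher by 0.48 ± 0.16 (adjusted p = 0.0153), whereas the class II gene BLB2, whose product CD74 chaperones, was at -0.20 ± 0.20 (adjusted p = 0.488).

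Markers of other blood cells gave 1 higher and 0 lower of 6 for T and natural killer cells (GATA3), 2 higher and 0 lower of 7 for B cells, 0 higher and 1 lower of 6 for heterophils and mast cells (MMP9; 2 lower in the blocked fit), 2 higher and 2 lower of 5 for thrombocytes, and 0 of 4 either way for erythroid cells, the zeros being the same at an unadjusted p under 0.05. The stromal list had 13 higher and 0 lower of 18, with summed levels of 326.3 to 2449 RPKM in controls and 545 to 2829 RPKM in treated samples. Over 96 to 168 h, where LY86, LAPTM5 and CD3E were higher, 15 of 18 stromal genes were higher, against 9.65% of all rows in that period. In the same period 5 of 27 macrophage genes were higher and 0 lower, with a median of 0.34. Of the 10 genes of most leukocytes 4 were higher and 1 lower (median 0.38), and of 11 melanocyte genes 4 were higher and 0 lower. These zeros were the same at an unadjusted p under 0.05. The stromal sums were then 326.3 to 1850 RPKM in controls and 1275 to 2829 RPKM in treated samples. Endothelial genes were 2 lower and 0 higher of 7, and at an unadjusted p under 0.05 no stromal gene was lower and no endothelial gene higher. The part of these cells in the values of the 8 genes was not tested.

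**Figure D4:**
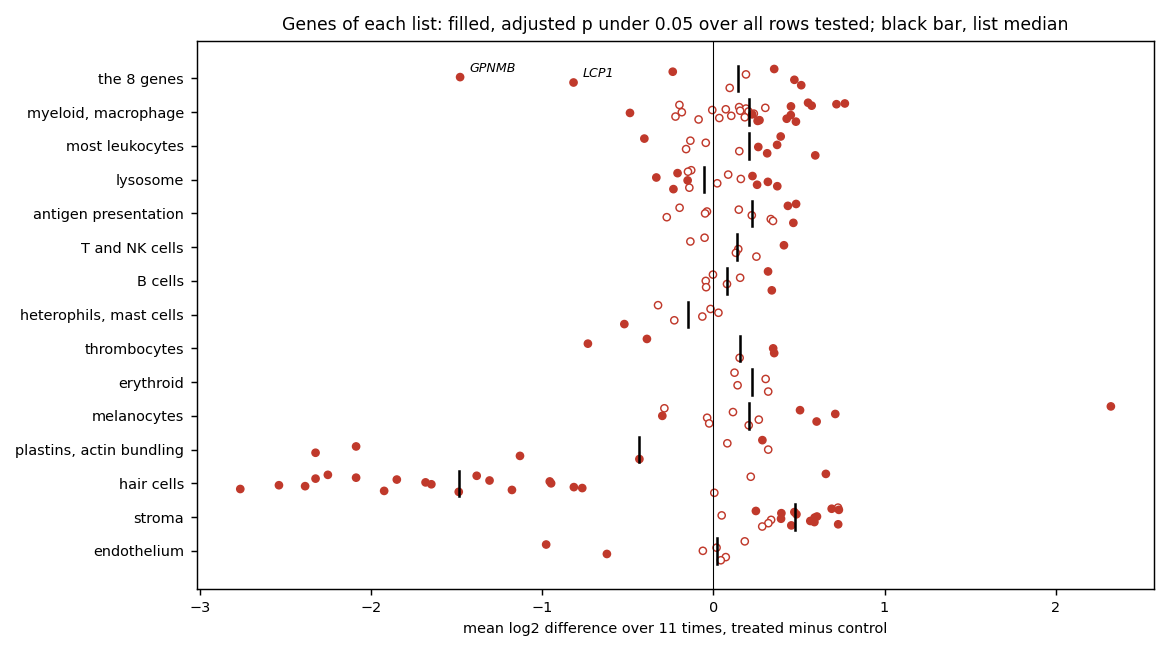
Mean treated minus control difference of log2(RPKM + 0.5) over 11 times (horizontal axis) for each tested gene of the 8 and of 14 marker lists (rows), filled where the adjusted p over all rows was under 0.05, with a bar at each list's median. GPNMB at -1.48 and LCP1 at -0.82 lie left of the macrophage list, whose median is 0.21. Both lie within the span of the hair cell list, whose median is -1.49 and which includes 1 gene called higher. Over 0 and 24 h, not drawn here, the hair cell median was -1.78, with GPNMB at -0.11 and LCP1 at -1.20.

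LY86 ran closest to the stromal gene POSTN and to MGP and ACTA2 over the group means (r = 0.918, 0.93 and 0.924), with correlations of 0.781, 0.794 and 0.862 within controls. CTSS ran closest to BPI, CTSB and APOA1 (r = 0.962, 0.947 and 0.943; 0.867, 0.915 and 0.899 within controls). For LAPTM5 the nearest rows were TMEM150A, CTSH and C1QC (0.893, 0.893 and 0.891). Their correlations were 0.5, 0.341 and 0.17 within controls and 0.712, 0.8 and 0.691 within treated samples.

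CD3E ran closest to NAALAD2, NELL2 and CDKN2C (0.934, 0.923 and 0.908; 0.55, 0.777 and 0.546 within controls). For CD74 and PTPRC the nearest of the 10776 named rows compared were P2RY6 (0.832) and FMNL1 (0.774). Within controls these were 0.348 and 0.412, and within treated samples 0.568 and 0.448. FMNL1, like PTPRC, was near the floor, with a control median of 0.289 RPKM. Among the 8 genes themselves the highest correlation over group means was that of LY86 with CTSS (0.825), and the lowest that of GPNMB with CD3E (-0.625).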

How the data were processed

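The deposited table holds 1 value per gene and library. Its unit is not named, and the values deposited by the authors were read as RPKM. TopHat 1.4.0 and Partek 6.6 are listed in the submitters' processing notes, with no roles; genome build and annotation were not given in the sources used here. Analysis used log2(RPKM + 0.5), on which folds of low genes come out too small. The 60 libraries gave 56 samples after second libraries of 4 samples were averaged. All entered 1 limma 3.58.1 model (R 4.3.3, statmod 1.5.0, intensity trend) of 22 group means with 34 residual degrees of freedom. The code was tried on simulated data with independent samples and a constant shift. Those data held no pairs, low depth or change with time, so they cannot show how these affect the model. Equal weights were given to each time in a period. Rows with an adjusted p under 0.05 were called.

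Same-numbered samples were taken as pairs because their deviations from group means correlated. The correlations were 0.117 to 0.71 in all 16 pairs of the 5 times with at least 3 pairs. Over all times 26 of 28 pairs were over 0.1, but at times with 2 samples per arm both pairs share 1 value by construction. The labels do not state pairing. The blocked fit left 17 degrees of freedom. It called 5793 of 13862 rows in the mean over all times, against 4307 without the block. Calls gained with the block are to be read beside that rise. For the other blocked tests the share of all rows is not given here. The 8 genes and 14 marker lists, written from general knowledge, were chosen with earlier results of these data known. Beside the 8 genes, the rule named the 3 most correlated rows of each, the most changed and most abundant genes of each list, of which a selection is given, and 10 fixed markers. IL7R, GZMA, CTLA4, TRAT1, EOMES, ZAP70, CD4, CD8A, CD247, THEMIS, TYR and BLB2 fall outside it and were chosen after their values were seen. Medians of OCA2, MITF, SLC24A5, GPR143, DCT, SLC45A2, MLANA, FSCN1, ACTN1 and ACTN4 were also given after they were seen. The 4080 rows named by Ensembl identifiers were tested but not named, and 2 columns that matched no sample were left out. Alternatives covered pseudocount, filter, scaling, block, repeat libraries, low depth, times fitted and single samples left out.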

Additional observations from a re-analysis of the deposited data

Results flagged for a closer look

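LCP1 in treated replicate 1 of 24 h, at 5.29 RPKM, stood far from the other 3 treated samples of that time. It was the only such value among 16 groups of 4 samples looked at, and chance flags about 1 in 20 groups.

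GPNMB, LCP1 and CD3E had a treatment difference over 96 to 168 h that differed from the one over 0 and 24 h by a test of that difference. The late minus early value was -1.435 for GPNMB, 0.767 for LCP1 and 1.006 for CD3E on the log2 scale.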

How the results depend on the processing

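The mean differences of LCP1, GPNMB, LY86, LAPTM5 and CD3E over all times kept their direction and their call under every alternative run and without any single sample. Early values of GPNMB were near 0 and changed sign: at 0 h -0.01 with trimmed-mean scaling, -0.022 with quantile normalization and -0.246 to 0.29 without single samples; at 24 h 0.006 and over 0 and 24 h 0.014 without libraries of low depth, and -0.248 to 0.02 without single samples. LAPTM5 over 0 and 24 h ran from -0.032 to 0.332 and CTSS over 96 to 168 h from -0.034 to 0.205 without single samples. The LCP1 late minus early call was lost with quantile normalization (0.587), and that of GPNMB ran from -1.569 to -1.301 without single samples. The number of the 8 genes whose difference varied between times was 2 with the replicate block, 3 with repeat libraries as separate samples, 1 without libraries of low depth and 0 to 1 without single samples; 2 passed at 0 and 24 h with repeat libraries separate, and 1 to 4 passed late minus early without single samples, the lowest without treated replicate 1 of 0 h. Fitted on its own samples, each time lost the single-time calls of LCP1, of LY86 at 120 h, of CD3E at 24 h and of GPNMB at 54, 60, 66 and 120 h, with fewer samples in the fit. The cause of the other changes was not tested. Groups of 2 samples, PTPRC under 1 RPKM and 7 libraries of low depth limit what single times can show.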
